A study of Mus musculus with 8 samples.

Results

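The pair of maps described here places a promoter mark beside the transcribing enzyme in resting macrophages. One is the list of H3K4me3 clusters, the stretches where histone H3 carried 3 methyl groups on lysine 4. The other is the list of RNA polymerase II (Pol II) positions, single bases at which Pol II tags piled up. The members are every cluster and every position that the authors listed at 0 h in these libraries, 1 library each. Clusters that reached beyond the last Pol II position on chromosomes 13 to 18 and X were left out, because the Pol II list stopped 3.04 to 17.3 Mb short of the 2 h Pol II list there. This left 20788 of 21418 clusters and 55588 of 55600 positions. The remaining 12 positions lay on the mitochondrial chromosome, where no cluster was listed. The 8 lists of the series held 364537 entries in all.

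Both libraries came from untreated bone marrow-derived macrophages, phagocytes grown in culture from marrow of female Fvb mice aged 6 to 8 weeks, and chromatin immunoprecipitation followed by sequencing (ChIP-seq) was run on 100000000 cells per antibody, per the labels. The other 6 lists of the series are used only to describe the same clusters and positions. They are H3K27me3 of untreated cells and, after lipopolysaccharide and interferon gamma, Jmjd3 at 2 h, Pol II at 2 and 4 h, and H3K4me3 and H3K27me3 at 4 h. The labels do not say how many mice gave marrow. The gene table at hand is on another genome build than the lists, so regions are named by position on mm8 and the macrophage label was not checked against marker genes.

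H3K4me3 is laid down around the start sites of genes, above all at CpG-rich promoters, and is bound by general transcription machinery. Pol II gathers at start sites, often pauses just downstream of them, and is then spread more thinly along gene bodies as it transcribes. A promoter can also carry H3K4me3 together with H3K27me3, the Polycomb mark of repression, and such promoters are called bivalent. In macrophages, many genes of the inflammatory response carry H3K4me3 before any stimulus, and some carry Pol II as well.

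Clusters are described by their width and by the highest number of overlapping tags within them, as the authors listed it (the count). Width ran from 315 to 25640 bp with a median of 2814 bp, and count from 11 to 361 with a median of 79. Pol II counts ran from 9 to 351 with a median of 14, and positions on a chromosome were at least 503 bp apart. A cluster holds Pol II where a position lies within it or within 250 bp of its edge. Intervals in brackets are exact 95% binomial intervals. They cover counting error only, since neighbouring entries are not independent and PCR reads are not independent molecules. Each antibody has 1 library, so nothing here was checked against a replicate and no p-value is given.

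Most H3K4me3 clusters of untreated macrophages held Pol II, and most Pol II positions lay elsewhere. Pol II was listed in 12938 of the 20788 clusters (62.2%, 61.6 to 62.9). Of the 55588 positions, 34298 (61.7%, 61.3 to 62.1) lay outside every cluster. Among positions above their median count of 14, the share outside was 40.1%, so it depends on how low the listed counts reach. The 250 bp margin decided few cases: 50 clusters held Pol II only through the margin, and another 40 had their nearest position 251 to 500 bp from the edge. Clusters with their margins covered 3.003% of the 2545 Mb spanned by the lists and held 38.3% of the positions. Positions were thus 20.1 times as dense inside as outside. The span includes sequence to which tags cannot be placed uniquely.

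The presence of Pol II went with the count of the cluster in a steep step (plot of shares by count and width). At counts of 11 to 12, 28.4% (26.2 to 30.6) of 1702 clusters held Pol II. The share was still 36.6% (34.5 to 38.8) at 31 to 50 and 52.0% (49.0 to 55.1) at 76 to 100. It was 72.6% (69.7 to 75.3) at 101 to 125 and 86.3% (84.2 to 88.2) at 126 to 150. Above that nearly all clusters held Pol II: 96.3% (95.6 to 96.9) of 3671 clusters at 151 to 200, 98.8% (98.3 to 99.1) of 3216 at 201 to 250 and 434 of 437 at higher counts. By quartile of count, the shares were 31.0% (29.8 to 32.3) at 11 to 21, 37.7% (36.4 to 39.1) at 22 to 79, 81.8% (80.8 to 82.9) at 80 to 183 and 98.7% (98.4 to 99.0) at 184 to 361. The highest quartile exceeded the lowest by 67.7 percentage points (95% Wald interval 66.4 to 69.0).

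**Figure D1:**
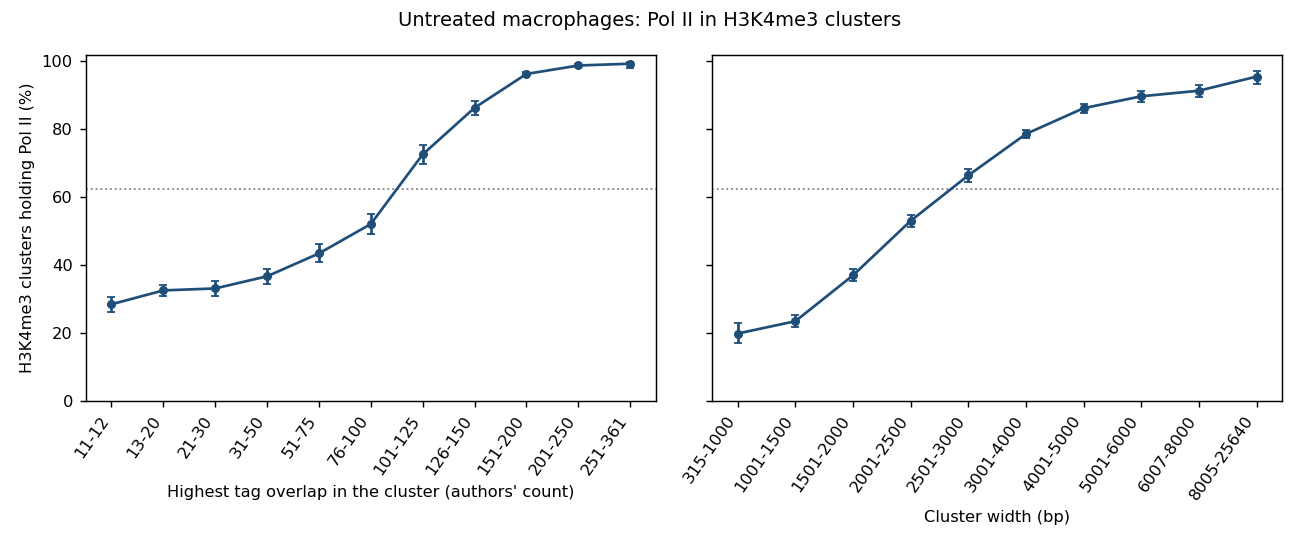
Share of H3K4me3 clusters of untreated macrophages that held Pol II, by the cluster's count (left) and width in bp (right); bars are exact 95% intervals and the dotted line is the share over all clusters, 62.2%. The share runs from 28.4% to 99.3% across the count classes and from 19.8% to 95.5% across the width classes.

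Wider clusters held Pol II more often too, without a step. The share was 19.8% (16.9 to 22.8) of 739 clusters up to 1000 bp, 36.9% (35.1 to 38.7) at 1501 to 2000 bp and 66.4% (64.6 to 68.2) at 2501 to 3000 bp. It was 86.2% (84.8 to 87.5) at 4001 to 5000 bp and 95.5% (93.3 to 97.2) of the 490 clusters over 8 kb. The widest quartile (3982 bp and more) exceeded the narrowest (up to 1889 bp) by 61.5 points (59.97 to 62.9). A wider cluster offers more room for a position, so the density is given as well. Positions per kb of cluster and margin numbered 0.155 in the narrowest class, 0.242 at 2501 to 3000 bp and 0.535 over 8 kb. These densities mix clusters of low and high count. At counts over 150 alone, density was 0.381 at 1544 to 2000 bp, lower at 3001 to 4000 bp (0.299) and 0.557 over 8 kb. At counts up to 50 it was 0.150 up to 1000 bp, 0.174 at 2501 to 3000 bp and 0.325 over 8 kb.

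Width and count are tied to each other (Spearman's rho 0.648 over the 20788 clusters, a description of 1 library with no p-value), so each was read within classes of the other. Within quartiles of width, the highest count quartile still exceeded the lowest by a weighted mean of 54.0 points (49.3 to 58.8). Within quartiles of count, the widest exceeded the narrowest by 24.95 points (20.03 to 29.9). That value is not corrected for the room that width gives. Both means draw on the narrowest clusters of the highest count quartile, only 18 clusters, 15 of them with Pol II. The contrast with these 18 was weighted by all clusters of its class. Among clusters of 2001 to 3000 bp alone, the share stayed between 37.3% and 40.2% at every count class up to 50. It was 49.0% (44.1 to 54.0) at 76 to 100, 70.1% (65.2 to 74.8) at 101 to 125 and 93.6% (91.7 to 95.2) at 151 to 200, and all 72 clusters above 250 held Pol II. The step between counts of 76 and 150 was therefore present at nearly fixed width.

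High clusters held Pol II more often than not in every width class. At counts over 150, 4 of 6 clusters of 1315 to 1450 bp, 81 of 91 (89.0%) of 1544 to 2000 bp, 90.8% (87.9 to 93.2) of those of 2001 to 2499 bp and 99.5% (98.2 to 99.9) of those over 8 kb held Pol II. At counts up to 50, the share was 22.5% (20.7 to 24.3) at 1001 to 1500 bp, 39.4% (36.3 to 42.6) at 2501 to 3000 bp and 49.7% (43.9 to 55.5) at 4001 to 5000 bp. It was 53.7% (45.3 to 61.9) at 5002 to 5998 bp, 45.9% (35.0 to 57.0) of 85 clusters of 6015 to 7886 bp and 61.5% (40.6 to 79.8) of 26 wider ones. The intervals of these 3 widest classes overlapped.

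**Figure D2:**
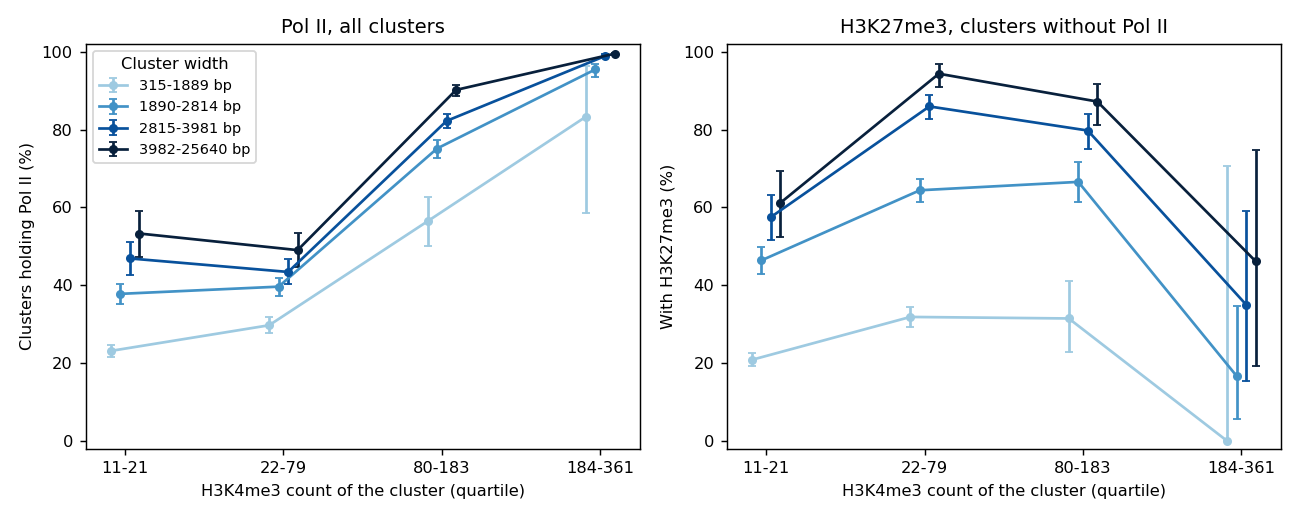
Share of clusters holding Pol II (left) and share of the clusters without Pol II that carried H3K27me3 (right), by quartile of count on the horizontal axis and quartile of width in colour; bars are exact 95% intervals. On the left all 4 lines climb from the second to the third quartile of count; on the right the widest clusters of counts 22 to 79 reach 94.4%, and the highest quartile of count rests on 66 clusters.

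The Pol II signal itself was taller in clusters of higher count. Taking the highest Pol II position of each holding cluster, its median count was 15 in clusters of count 11 to 12, with quartiles of 11 and 22. It was 24 (15 to 40) in clusters of 76 to 100, 43 (28 to 65) at 151 to 200 and 52 (35 to 75) above 250. Over the 12938 holding clusters, Spearman's rho between the cluster's count and its highest Pol II count was 0.519, and 0.458 for width. The highest is taken over more positions in such clusters. Several positions were listed in 26.9% of holding clusters at counts of 11 to 12 and in 41.2% above 250. The number of positions also went with width (Spearman's rho 0.504). Clusters with 1 position were not compared alone. The count classes overlapped widely in their highest Pol II count. The tallest Pol II position of any cluster, 351, lay in a cluster of count 36.

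The 5 clusters of highest count all held Pol II, with highest positions from 14 to 84. The first, chr6:47575889-47581446 (count 361), held 1 position of count 14, the median of the whole Pol II list, and also overlapped H3K27me3 at both times and Jmjd3. Next came chr17:32901088-32905471 (count 316), with 1 position of count 53. The cluster at chr1:173180374-173184157 (305) held 3 positions, of which the highest was 84. The cluster at chr10:126521785-126524720 (304) held 1 position of count 48, and that at chr10:80758128-80767432 (301) held 7 with counts from 10 to 63. The last 4 overlapped neither H3K27me3 nor Jmjd3, and all 5 were listed for H3K4me3 and Pol II after stimulation.

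Most holding clusters had a single Pol II position. Exactly 1 was listed in 8873 clusters (68.6% of those holding any, 67.8 to 69.4), 2 in 2204, and 3 or more in 1861. The mean was 1.65 per holding cluster (SD over clusters 1.39), and 50 clusters held 10 or more. The 1861 clusters with 3 or more were 8.95% (8.57 to 9.35) of all clusters and took 37.7% of the positions in clusters. Median width went from 1937 bp with no position to 3016 bp with 1, 3942 bp with 2 and 5960 bp with 3 or more. Median count went from 23 to 157 between 0 and 1 position, and only to 186 with 3 or more. Count and width were thus both higher in clusters with Pol II. Between clusters with 1 and with several positions, width differed more than count.

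This shows in the numbers by width (plot of numbers per cluster). At 3001 to 4000 bp, 59.7% of clusters held 1 position and 4.70% held 3 or more. At 5001 to 6000 bp the shares were 37.2% and 28.5%, and over 8 kb they were 5.51% and 82.7%. Listed positions are over 500 bp apart, so width bounds how many a cluster can hold. At counts over 150 the mean number was 1.06 at 2501 to 3000 bp, 1.502 at 4001 to 5000 bp and 5.94 over 8 kb. At counts up to 50 the means were 0.562, 1.08 and 3.54 in the same width classes.

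**Figure D3:**
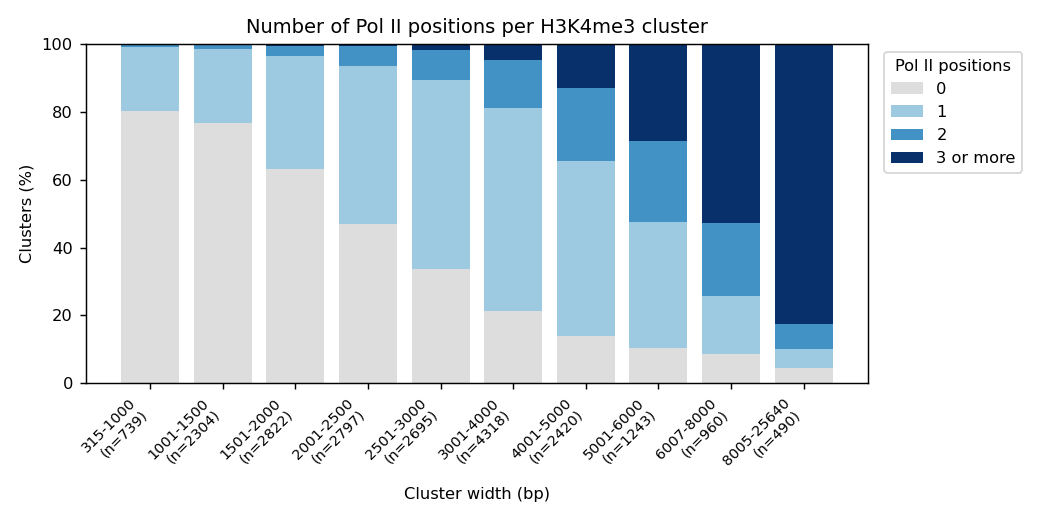
Share of clusters with 0, 1, 2 and 3 or more Pol II positions, stacked to 100% for each class of cluster width in bp, with the number of clusters under each bar. A single position is the most frequent state from 2501 to 6000 bp, and 3 or more positions fill 82.7% of the bar over 8 kb.

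The largest numbers stood in the widest clusters. The widest cluster of the list, chr11:3049248-3074887 (25.6 kb, count 71), held 25 positions with counts from 14 to 59. It follows directly on the second widest, chr11:3027927-3049163 (21.2 kb, count 43), with 17 positions of 16 to 62. Both overlapped entries of all the other 6 lists, H3K27me3 and Jmjd3 included. The series lists no control library, so whether tags pile up there with any antibody was not tested. Both had counts below the list's median. The other wide clusters combined a high count with many positions. The cluster chr13:63248331-63268842 (20.5 kb, count 230) held 19, and chr14:73906520-73926379 (19.9 kb, count 211) held 18, the highest of count 189. The cluster at chr2:44921703-44940475 (18.8 kb, count 147) held 17. These 3 overlapped Jmjd3 at 2 h and no H3K27me3. The remaining clusters of the 5 widest, chr15:76015151-76035951 and chr9:55887468-55907865, held 13 and 7 positions. They too overlapped Jmjd3 and no H3K27me3. Over all clusters, 13.7% overlapped Jmjd3 at 2 h and 24.4% overlapped H3K27me3 of untreated cells. Wide clusters offer more room for an entry of either list.

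Pol II sat towards the middle of its cluster. In the 8873 clusters with a single position, that position lay in the middle 20% of the width in 36.6% (35.6 to 37.6). The outer 20% at each end together took 7.19%, and 49 positions lay in the margin beyond an edge. The median distance from the midpoint was 385 bp, with quartiles of 177 and 682 bp. It was 170 bp in the narrowest quartile of width and 811 bp in the widest, where the middle 20% took 27.3% (25.3 to 29.3). In the 4065 clusters with several positions, the highest lay in the middle 20% in 24.8% (23.5 to 26.1) and a median of 829 bp from the midpoint. The curve for these clusters had shallow maxima at 25 to 30% (7.55% of clusters) and 70 to 75% (7.11%) of the width, with 5.88% at 50 to 55% (plot of place along the cluster). The lists carry no strand, so upstream and downstream were not told apart.

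**Figure D4:**
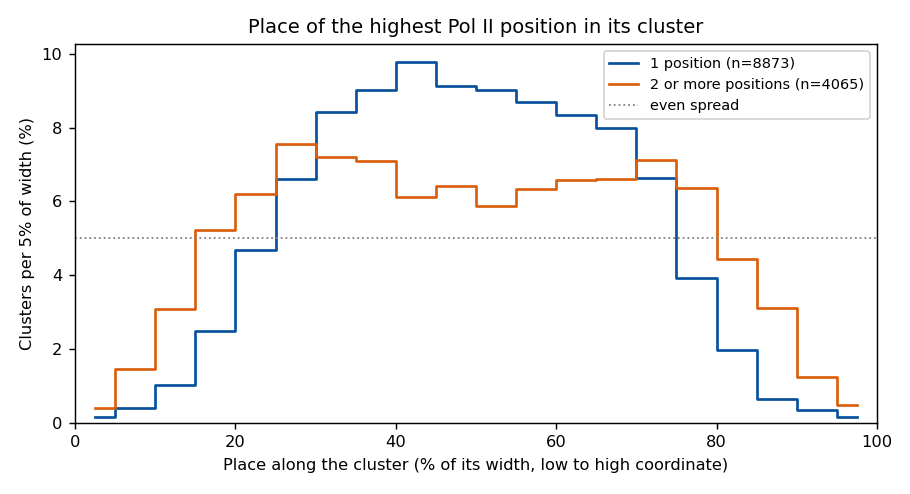
Place of the highest Pol II position along its cluster, from the low-coordinate edge (0%) to the high-coordinate edge (100%), as the percent of clusters in each 5% of the width; the dotted line is an even spread. Clusters with 1 position peak in the middle, and those with 2 or more have 2 shallow maxima to either side.

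The 7850 clusters without a listed Pol II position were narrower and lower, with a median width of 1937 bp and a median count of 23, against 3408 bp and 162 for holding clusters. Pol II below the lowest listed count of 9 may be present there and was not detectable in this list. Their nearest Pol II position was a median of 27.3 kb away. H3K27me3, a readout that the choice of clusters did not use, separated the classes of cluster. It overlapped 24.4% of all clusters, 10.9% (10.4 to 11.5) of those with Pol II and 46.6% (45.5 to 47.7) of those without, a difference of 35.7 points (Wald, 34.4 to 36.9). The H3K27me3 list of 4 h, at 24.9% of all clusters, gave 10.5% (9.98 to 11.04) and 48.7% (47.6 to 49.8). Each list averages over the cells, so both marks at 1 cluster may come from the same or from different cells.

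The H3K27me3 share varied with count and width together. A wider cluster offers more room for an H3K27me3 position too, and no density is given for this mark. Among clusters without Pol II, the share was 94.4% (90.9 to 96.8) of 266 clusters in the widest quartile at counts of 22 to 79. It was 86.0% (82.7 to 88.8) in the next width quartile at the same counts and 31.9% (29.3 to 34.5) in the narrowest. With Pol II, the shares in these 3 classes were 26.2% (20.9 to 32.0), 15.9% (12.5 to 19.8) and 14.2% (11.4 to 17.3). At counts of 80 to 183 and the widest quartile, H3K27me3 was at 87.2% (81.3 to 91.8) of 172 clusters without and 19.8% (17.9 to 21.9) of 1583 with Pol II. The share was higher without Pol II in 15 of the 16 classes of width and count; in the narrowest and highest class, which held 3 clusters without Pol II, it was 0 of 3 against 2 of 15.

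Read the other way, clusters with H3K27me3 held Pol II less often at the same count. At counts of 11 to 12, Pol II was in 5.54% (3.37 to 8.52) of clusters with H3K27me3 and 34.1% (31.6 to 36.7) of those without. At 51 to 75 the shares were 20.2% (17.3 to 23.4) and 66.5% (62.9 to 70.0), and at 101 to 125 they were 50.5% (45.5 to 55.4) and 87.9% (85.0 to 90.4). The gap was narrower at 151 to 200, where Pol II was in 81.1% (76.8 to 84.8) of 391 clusters with H3K27me3 and 98.1% (97.6 to 98.5) of 3280 without. Above 250, all 21 clusters with H3K27me3 held Pol II. The share with Pol II went with count in both groups.

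By combined state, 11524 clusters (55.4%, 54.8 to 56.1) held Pol II without H3K27me3, with a median count of 169. A further 1414 (6.80%, 6.46 to 7.15) carried Pol II and H3K27me3, with a median count of 123 and a highest Pol II position of median count 22, against 36 without H3K27me3. H3K27me3 without Pol II marked 3657 clusters (17.6%, 17.1 to 18.1) of median count 35. The last 4193 (20.2%, 19.6 to 20.7) had neither and were the narrowest and lowest, with a median of 1573 bp and a count of 18.

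The 5 widest clusters without Pol II all carried H3K27me3 at 0 and 4 h and no Pol II at any time. They were chr3:99376892-99387499 (10.6 kb, count 72), chr9:55334981-55345530 (10.6 kb, 94), chr15:35236016-35246194 (10.2 kb, 69), chr2:71338191-71348305 (10.1 kb, 78) and chrX:71918605-71928627 (10.0 kb, 36). The nearest Pol II position lay 18.3 to 107 kb away.

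High clusters without Pol II were few. Of the 3653 clusters with counts over 200, 42 (1.15%, 0.830 to 1.55) held none. H3K27me3 was at 9 of these 42 (21.4%, 10.3 to 36.8). The 24.4% of all clusters comes from mostly lower counts, so clusters of like count are compared. At 201 to 250, H3K27me3 was at 9 of 39 clusters without Pol II and 128 of 3177 with it. At 151 to 200 it was at 74 of 136 and 317 of 3535. In the highest count quartile (184 to 361), the shares were 27.3% of 66 clusters without and 4.82% (4.25 to 5.45) of 5061 with Pol II. At counts over 150 H3K27me3 was at 83 of the 178 clusters without Pol II (46.6%, 39.1 to 54.2), the share found over all clusters without Pol II. None of the 42 over 200 had a Pol II position within 1 kb of its edge, and 9 had one within 5 kb. Of the 178 over 150, 1 had one within 1 kb and 34 within 5 kb. After stimulation, Pol II was listed in 29 of the 42 at 2 h (69.0%, 52.9 to 82.4) and 25 at 4 h (59.5%, 43.3 to 74.4). These intervals include the shares over all clusters, 61.2% and 61.0%, but most of those clusters held Pol II at 0 h. Over all clusters without Pol II at 0 h, the shares were 16.1% and 13.4%. The highest of the 42 was chr4:45317677-45319274 (count 268), a narrow cluster of 1.60 kb whose nearest Pol II position of untreated cells was 13998 bp off. It was followed by chr7:126550149-126553500 (260), chr9:88344291-88348334 (259), chr6:97771218-97776399 (242) and chr7:120620585-120623058 (241). All 5 had Pol II at 2 h, the first 4 also at 4 h, and none had H3K27me3.

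Low clusters held Pol II more often near high ones. Among the 6910 clusters of count up to 30, 31.6% (30.5 to 32.7) held Pol II. The share was 49.8% (43.7 to 55.9) of the 273 within 1 kb of a cluster of count over 100 and 49.8% (45.7 to 53.9) at 1 to 5 kb. It was 35.0% (33.1 to 36.9) at 10 to 50 kb and 21.04% (19.6 to 22.6) of the 2928 farther off. Median counts were 15 to 16 in all these classes, and median widths went from 2069 bp in the nearest to 1708 bp in the farthest. H3K27me3 ran the other way, from 9.89% within 1 kb to 34.1% beyond 50 kb.

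Pol II positions inside clusters were taller than those outside, with a median count of 25 (quartiles 14 and 46) against 12 (10 and 16). Of the 8690 positions at the lowest count of 9, 85.4% (84.6 to 86.1) lay outside clusters. The share outside was 67.2% (66.0 to 68.3) at counts of 15 to 18, 30.9% (29.7 to 32.1) at 26 to 40 and 7.02% (5.91 to 8.28) of the 1865 positions over 80. Of the 34298 outside positions, 131 had counts over 80.

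**Figure D5:**
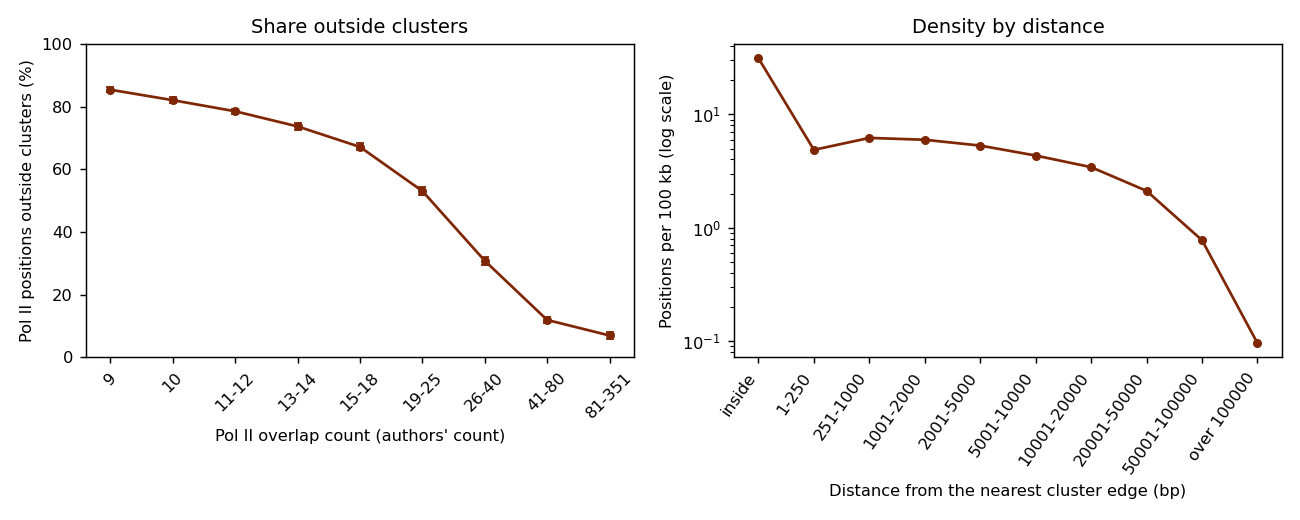
Left, share of Pol II positions outside H3K4me3 clusters by the position's own count, with exact 95% intervals; right, Pol II positions per 100 kb of sequence by distance from the nearest cluster edge, on a log axis. The share outside runs from 85.4% to 7.02%, and the density from 31.4 per 100 kb inside clusters to 0.0950 beyond 100 kb.

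Outside positions lay close to clusters. Their distance to the nearest cluster had a median of 11.5 kb, with quartiles of 4.41 and 26.3 kb, and 3.53% (3.34 to 3.73) lay beyond 100 kb. Density was 31.4 positions per 100 kb inside clusters, 6.20 at 251 to 1000 bp from an edge, 4.33 at 5 to 10 kb and 2.11 at 20 to 50 kb. Beyond 100 kb, which was 50.1% of the sequence, it was 0.0950. Median Pol II count was 25 inside and 11 or 12 in every distance class outside. Taller outside positions lay nearer to clusters, with a median distance of 12.8 kb at a count of 9 and 6.89 kb at 41 to 80.

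The cluster next to an outside position usually held Pol II itself. This was so for 85.5% (85.1 to 85.9) of outside positions, against 62.2% of all clusters, though a cluster can be nearest to many positions. The share was 91.7% (91.2 to 92.3) within 5 kb of a cluster and 77.2% (75.7 to 78.5) beyond 50 kb. Outside positions also came in runs: 69.7% (69.2 to 70.2) had another Pol II position within 2 kb, against 55.5% (54.8 to 56.1) of those inside.

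The 5 tallest positions inside clusters lay in clusters of counts from 11 to 235. Position 96324994 on chromosome 3 (count 351) lay in a cluster of 574 bp and count 36. Position 5845367 on chromosome 19 (331) lay in a cluster of 13.1 kb and count 235 that held 9 positions. The next were position 81851841 on chromosome 11 (323, in a cluster of count 84), position 143171720 on chromosome 5 (321, count 232) and position 87259523 on chromosome 11 (320). The last lay 170 bp beyond the edge of a cluster of 734 bp and count 11, the lowest listed, and counted as inside only through the margin. All 5 were listed for Pol II at 2 and 4 h.

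Some very tall Pol II positions lay outside clusters. The tallest outside was position 55632265 on chromosome 12 (count 311), 13.6 kb from a cluster, and position 55640621 on the same chromosome (283) was 21.9 kb from one. The first had 7 further outside positions within 10 kb. Position 101458232 on chromosome 11 (293) was 293 bp from a cluster edge, just past the margin, and position 116680254 on chromosome 10 (259) was 1.21 kb from one. Position 14714984 on chromosome 17 (253) was 10.8 kb from a cluster, with 11 outside positions within 10 kb of it. All 5 overlapped Pol II at both later times and neither H3K4me3 at 4 h, H3K27me3 nor Jmjd3. Among positions over 10 kb from a cluster, the next were 98463469 and 98467745 on chromosome 2 (241 and 208), both about 1.20 Mb from the nearest cluster. Those 2 overlapped H3K27me3 at both times as well as Pol II at 2 and 4 h, but not H3K4me3 at 4 h or Jmjd3. Without a control library, whether tags pile up there with other antibodies was not tested.

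After stimulation, clusters with and without Pol II at 0 h mostly stayed so in the later Pol II lists. Pol II was listed at 2 h in 61.2% of all clusters, 88.6% (88.1 to 89.2) of those that had held it and 16.1% (15.3 to 16.9) of those that had not. At 4 h it was in 61.0% of all, 89.8% (89.3 to 90.4) and 13.4% (12.6 to 14.1). The times are separate libraries with their own lowest counts, so these are overlaps of lists and not tested changes. Pol II was listed at all 3 times in 11165 clusters (53.7%, 53.0 to 54.4) and at none in 6352 (30.6%, 29.9 to 31.2). The clusters with none carried H3K27me3 of untreated cells in 50.6% (49.4 to 51.9), those with all in 10.3% (9.72 to 10.9).

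Clusters new to Pol II were commoner where the count was high. Among clusters without Pol II at 0 h, 11.0% (9.98 to 12.04) had it at 2 h in the lowest count quartile, 14.8% (13.6 to 16.1) in the second, 35.8% (32.8 to 39.0) in the third and 47 of 66 (71.2%, 58.7 to 81.7) in the highest. H3K4me3 was listed again at 4 h for 87.0% of all clusters, and the shares with and without Pol II at 0 h were close at equal count. In the lowest quartile of count they were 51.0% (48.6 to 53.5) with Pol II and 52.4% (50.8 to 54.1) without, and in the second 96.4% (95.5 to 97.2) and 97.1% (96.4 to 97.6). Jmjd3 at 2 h overlapped 13.7% of all clusters. In the third quartile of count it was at 21.5% (20.3 to 22.8) of clusters with Pol II at 0 h and 8.15% (6.50 to 10.1) of those without.

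Outside positions were less often listed again than inside ones in the same class of height. At counts of 15 to 24, 52.1% (51.0 to 53.3) of outside and 68.0% (66.6 to 69.3) of inside positions overlapped Pol II at 2 h, against 51.9% of all positions. The 4 h list overlapped 56.7% of all, and 63.0% (61.9 to 64.1) and 71.8% (70.5 to 73.1) at these counts. At counts of 25 and more the 2 h shares were 68.7% (67.0 to 70.4) and 91.0% (90.4 to 91.5). H3K4me3 at 4 h overlapped 36.1% of all positions and 2.83% (2.66 to 3.01) of those outside the 0 h clusters. H3K27me3 of untreated cells, at 3.16% of all positions, overlapped 1.81% (1.67 to 1.957) of outside and 5.35% (5.05 to 5.66) of inside positions. This gap did not hold at all heights. At counts of 9 to 10, H3K27me3 overlapped 1.05% (0.879 to 1.24) of outside and 6.60% (5.65 to 7.66) of inside positions. In the open class of 25 and more, the shares were 5.05% (4.27 to 5.92) and 3.91% (3.55 to 4.29), with intervals that overlap. The 4 h list, at 3.15% of all, overlapped, over all heights, 2.05% (1.90 to 2.20) and 4.93% (4.64 to 5.23). Jmjd3 at 2 h, at 5.32% of all positions, overlapped 0.379% (0.317 to 0.450) of outside and 13.3% (12.83 to 13.7) of inside positions.

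The pairing at 4 h gave similar values side by side, from other libraries. Of 19081 H3K4me3 clusters at 4 h, 63.9% (63.2 to 64.6) held a Pol II position of 4 h, and 63.9% (63.5 to 64.3) of the 56043 positions lay outside clusters. The quartiles of count had shares of 29.4%, 39.4%, 88.1% and 99.1%, with the largest gap again between the second and the third. Across chromosomes of untreated cells, the share of clusters holding Pol II ran from 55.7% (52.5 to 58.9) on chromosome 13 to 67.5% (65.0 to 70.0) on chromosome 7, whose clusters had median counts of 59 and 104. On chromosome X, 58.0% (53.7 to 62.1) of clusters held Pol II, and 48.4% (45.1 to 51.7) of positions lay outside clusters, against 61.9% (61.5 to 62.3) on the autosomes.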

How the data were processed

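ChIP DNA of about 200 to 300 bp was sequenced to over 10000000 uniquely mapped tags per library, per the labels; the exact depth of each was unknown, so no level was compared between libraries. Each list the authors deposited gives 1 signal per entry, the number of overlapping tags, in whole numbers that no header describes as scaled to depth or control. Per the file headers, H3K4me3 entries have both edges, and the other lists give single positions. The submitters' processing notes name mm8. How tags were aligned, and which caller, threshold and control were used, is not given in the sources used here.

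Single positions were given 250 bp per side, and 1 shared bp counted as overlap. Quartile classes kept equal values together. Differences within classes were weighted by clusters per class; intervals of differences are 95% Wald. Regions named are the first 5 by count, width or number of Pol II positions within each state. Members, classes and this rule were chosen with earlier results of these data known; finer classes, the distance classes and the place along the cluster were chosen after the data were seen. No gene list was run, since no annotation of mm8 was used here. Alternatives were the window, thresholds on either list, merged clusters, autosomes and the chromosome ends. Scripts ran in Python 3.11.15 with pandas 2.3.3, numpy 2.4.6, matplotlib 3.10.9 and scipy 1.17.1. Overlap counting recovered 4000 of 4000 planted clusters on simulated data, and matched bedtools 2.31.1 for all 21418 clusters.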

Additional observations from a re-analysis of the deposited data

Results flagged for a closer look

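Pol II was listed at 12 positions of the mitochondrial chromosome in untreated cells, with counts of 9 to 41, a signal outside the comparison of clusters and positions. The H3K4me3, H3K27me3 and Jmjd3 lists held none there, and the Pol II lists held 2 at 2 h and 4 at 4 h.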

How the results depend on the processing

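Of 43 values recomputed under alternatives, 24 stayed within the interval of the reported value and 19 moved beyond it. No difference between classes changed sign, while shares and mean numbers are positive by construction and could not. With only Pol II positions above their list's median count of 14, 52.1% of clusters held Pol II, 40.1% of positions lay outside clusters, the mean number was 1.43, the differences by width and count were 68.2 and 78.9 points, those within classes of the other 31.4 and 60.6, and that for H3K27me3 31.8. With only clusters above their list's median count of 78, 90.01% held Pol II, 70.8% of positions lay outside and the mean number was 1.73. With the position alone, 62.6% of positions lay outside and the mean number was 1.61; with 1 kb per side these were 58.4% and 1.80, and the difference by count was 66.3 points. With the chromosome ends kept, 60.4% of clusters held Pol II and the H3K27me3 difference was 34.3 points. Merging clusters under 1 kb apart gave a mean number of 1.70. The share of positions outside clusters thus depends on how low the listed counts reach, and a deeper library can list more low positions. No paired analysis was possible because each antibody and time has 1 library.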
